A study of Sus scrofa with 6 samples.

Results

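The insulin-like growth factor (IGF) family was examined in longissimus dorsi muscle (LDM), a mainly glycolytic muscle of the back, and psoas major muscle (PMM), a mainly oxidative muscle of the loin, of untreated female Landrace pigs at 210 days of age. The members were IGF1, IGF2, IGF1R, IGF2R and IGFBP2 to IGFBP6, and a probe was taken when its name or description in the array files gave a member or the words insulin-like growth factor, other than the mRNA-binding proteins. This gave 21 of the 43603 probes besides the controls, for 11 genes, which were 8 of the 9 members together with IGFBP1, IGFBPL1 and IGFALS. No probe was found for IGFBP4 in this way, but A_72_P351938 carries the older name IBP4 and is described beside the others, outside the counts of family probes given here. Each sample of whole-muscle RNA was read on its own Agilent array in the Cy3 channel, 3 for LDM and 3 for PMM, and the study took both muscles from each of 3 pigs. The pigs carried no transgene or deletion and were kept off feed before slaughter, so the values describe 1 breed, 1 sex and 1 age in the fasted state. The groups hold only these 3 arrays each, which limits the precision of every value below.

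IGF1 and IGF2 are secreted peptides related to proinsulin that promote growth, differentiation and survival of muscle cells. Both signal through the receptor tyrosine kinase IGF1R, whereas IGF2R, which is also the cation-independent mannose 6-phosphate receptor, carries IGF2 to lysosomes. Most circulating IGF is held by binding proteins, which prolong its life and control its access to the receptors, and the acid labile subunit IGFALS joins IGFBP3 or IGFBP5 and IGF in a ternary complex.

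All probes were 60 bases long. Sequences are given below for 6 of them, because the encoded part of the protein can be named and because overlapping IGF2 probes provide repeated readings of the same stretch. They are copied from the array files, 5′ to 3′, and capitals mark the bases that a probe shares with the other probe of its pair. The first IGF2 pair spans the end of the signal peptide and the start of the mature hormone, with 38 bases in common, and the second pair lies in the E peptide that is removed from the prohormone, with 51 bases in common. The IGF2R probe lies in the cytoplasmic tail, and the IGFBP5 probe in the basic heparin-binding stretch near the carboxyl end.
IGF2 A_72_P414443: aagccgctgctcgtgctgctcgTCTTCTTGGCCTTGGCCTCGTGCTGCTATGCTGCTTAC
IGF2 A_72_P055876: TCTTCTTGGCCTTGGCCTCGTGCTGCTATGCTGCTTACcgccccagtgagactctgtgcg
IGF2 A_72_P414438: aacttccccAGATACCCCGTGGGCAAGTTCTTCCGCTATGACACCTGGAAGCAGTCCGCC
IGF2 A_72_P209727: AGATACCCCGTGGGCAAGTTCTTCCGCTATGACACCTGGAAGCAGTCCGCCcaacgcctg
IGF2R A_72_P245722: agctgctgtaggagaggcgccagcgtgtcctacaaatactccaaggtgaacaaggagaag
IGFBP5 A_72_P146706: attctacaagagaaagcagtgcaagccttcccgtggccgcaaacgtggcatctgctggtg

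Signals are given as relative signal, the processed intensity divided by the 75th percentile of the intensities on the same array, so that 1 is the level of that percentile. A relative signal can be compared between arrays for the same probe but not between probes. Fold changes are on the log2 scale as PMM minus LDM, and a negative value means a lower signal in PMM. The standard error (SE) is that of limma fitted with the muscle alone, without pairing of arrays, unless stated otherwise. Between 58.5% and 72.4% of the spots on an array were well above background, which is the scanner program's own flag, and none was saturated. The label text on RNA extraction names adipose tissue, and therefore markers were checked. Of 18 muscle fibre genes, 16 had a probe, all 16 were tested, and their summed relative signal ranged from 6950 to 11111 in LDM and from 8458 to 13629 in PMM. Adipocyte genes were measured as well, with sums from 77.5 to 237 in LDM and from 82.2 to 256 in PMM over 7 genes, of which ADIG was not well above background on any array. Sums over different probes are not comparable, so the share of adipose tissue in the samples cannot be read from them. Arrays with the same replicate number deviated together in the 2 muscles, and the replicate number coincided with the scan day. Arrays of replicates 2 and 3 also shared a slide between the muscles, whereas those of replicate 1 did not. Differences within a replicate number are therefore also differences within a scan day.

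No probe of the IGF family separated the 2 muscles. A probe was tested when it was well above background on all 3 arrays of either muscle, which 18 of the 21 probes, of 10 genes, were. The other 3 probes, A_72_P262822 for IGF1R, A_72_P176276 for IGFBP1 and A_72_P220047 for IGFBPL1, were not well above background on any of the 6 arrays. limma called 0 of the 18 probes at an adjusted p under 0.05 (lowest adjusted p 0.99998), against 0.031% of all 25835 probes tested, and 0 at an unadjusted p under 0.05, against 2.63% of all. With the replicate number as a block, limma again called 0, against 0.0658% of all probes, and 3 of the 18 had an unadjusted p under 0.05, against 11.1% of all. With the slide as a random block, limma called 0 as well, against 1.16% of all. The 3 probes were the IGF2R probe, the IGFBP6 probe and the dimmer IGF1 probe, and all 3 were lower in PMM. The IGF2R probe and the dimmer IGF1 probe entered the test through LDM alone, being well above background on 2 and 1 PMM arrays. Such a filter favours probes that are lower in PMM, so the direction of these probes carries no weight of its own.

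The signal was higher in PMM for 10 of the 18 probes and lower for 8, with a median log2 fold change of 0.04 beside -0.04 over all probes tested. These values count probes and not genes, and 6 of the 10 were IGF2 probes, some of them overlapping. By the brightest probe, IGF1, IGF2, IGFBP2 and IGFALS were higher in PMM. IGF1R, IGF2R, IGFBP1, IGFBP3, IGFBP5 and IGFBP6 were lower. Single log2 fold changes lay between -0.69 and 0.40. The values of the 3 LDM and the 3 PMM arrays overlapped for every one of the 18 probes, whereas they did not overlap for 5.94% of all probes. PMM was below LDM within all 3 replicate numbers for 3 of the 18 probes, against 19.4% of all probes, and above it within all 3 for 0, against 16.4% of all. An exact two-sided permutation test of 3 against 3 arrays cannot give a p below 0.1, and the lowest p among the 18 probes was 0.3. Because whole muscle was measured, fewer cells of a type and less RNA per cell cannot be told apart in any of these values.

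**Figure D1:**
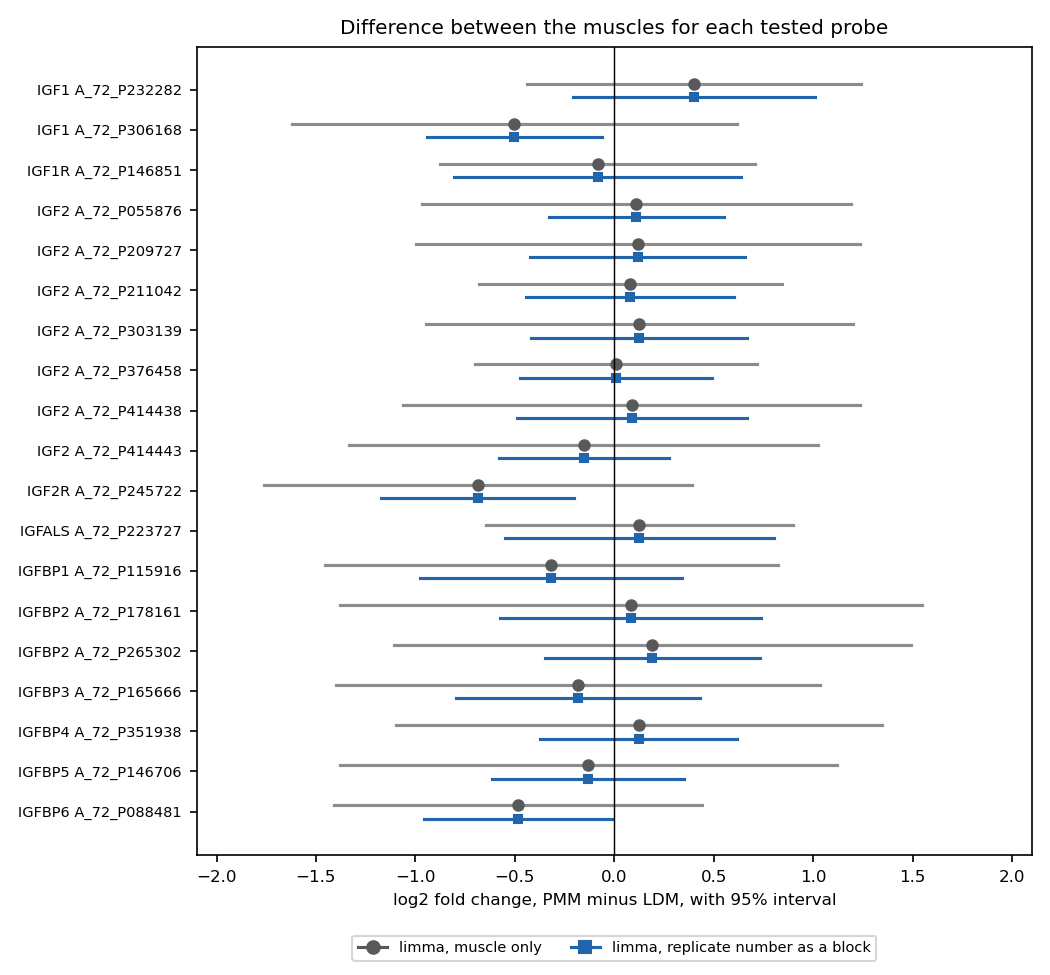
Log2 fold change, PMM minus LDM, of the 18 tested family probes and the IGFBP4 probe, with 95% intervals from limma with muscle alone (grey circles) and with the replicate number as a block (blue squares). All grey intervals include 0, and the blue intervals of IGF2R, IGFBP6 and the dimmer IGF1 probe lie below 0 although their adjusted p-values do not pass 0.05.

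IGF1, the ligand that growth hormone induces in liver and muscle, was read by 2 probes that ran in opposite directions. For A_72_P232282, the relative signal was 1.49, 2.79 and 2.94 in LDM replicates 1 to 3 and 2.76, 3.87 and 2.64 in PMM replicates 1 to 3. LDM replicate 1 was the lowest array and PMM replicate 2 the highest, and the groups overlapped. PMM minus LDM was 0.40 on the log2 scale (SE 0.37, 95% interval -0.44 to 1.24), and the exact permutation p was 0.6. Within replicate numbers it was 0.89, 0.47 and -0.16, so the higher mean in PMM came from replicates 1 and 2.

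For A_72_P306168, designed on a transcript clone from ovary, the relative signal was 0.0271, 0.0768 and 0.0579 in LDM and 0.0219, 0.0553 and 0.0352 in PMM. This probe was dim, being well above background on 3 LDM arrays but on 1 PMM array, and replicate 1 was the lowest in both muscles. The log2 fold change was -0.50 (SE 0.49), with -0.31, -0.47 and -0.72 within replicates 1 to 3, and it turned to 0.38 with normexp background correction. With the block, the adjusted p of limma was 0.391. The mean of both IGF1 probes differed by -0.05 between the muscles.

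IGF2, the ligand that predominates in fetal growth and is expressed from the paternal copy in most tissues, was read by 7 probes. None separated the muscles. At A_72_P376458, the relative signal was 162, 185 and 265 in LDM and 200, 190 and 213 in PMM. At A_72_P211042, whose longest unbroken run in common with the former is 34 bases, it was 151, 196 and 291 in LDM and 203, 216 and 231 in PMM. At both, LDM replicate 1 was the lowest and LDM replicate 3 the highest array, so the PMM values lay inside the range of LDM. The log2 fold changes were 0.01 (SE 0.31) and 0.08 (SE 0.33).

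At A_72_P303139, the relative signal was 25.9, 55.9 and 84.1 in LDM and 39.0, 56.9 and 71.3 in PMM. The PMM values again lay inside the range of LDM, with a log2 fold change of 0.12 (SE 0.47). These 3 probes have listed starts of 1138, 1424 and 1430 in the transcript records named for them, later than the starts of 388, 410, 679 and 688 of the 4 probes whose sequences are shown above.

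Among the signal peptide pair, the relative signal at A_72_P414443 was 0.979, 1.10 and 2.89 in LDM and 0.987, 0.996 and 2.30 in PMM. At A_72_P055876, it was 0.894, 0.991 and 2.20 in LDM and 1.14, 0.949 and 2.27 in PMM. In both muscles replicate 3 was the highest array at both probes. Among the E peptide pair, A_72_P414438 gave 2.74, 2.99 and 7.54 in LDM and 4.27, 2.57 and 6.74 in PMM. A_72_P209727 gave 2.48, 2.86 and 7.06 in LDM and 3.76, 2.70 and 6.30 in PMM. Again replicate 3 was the highest in both muscles, and the 2 overlapping probes ranked the 6 arrays in nearly the same order.

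The log2 fold changes of these 4 IGF2 probes were -0.15 (SE 0.52) at A_72_P414443, 0.11 (SE 0.47) at A_72_P055876, 0.09 (SE 0.50) at A_72_P414438 and 0.12 (SE 0.49) at A_72_P209727. Over all 7 IGF2 probes they ranged from -0.15 to 0.12, and 6 of 7 were above 0, but the sign of 5 of the 7 turned under 1 or more of quantile normalization, median centring, normexp correction and the slide block. The adjusted p of limma with the replicate block was at least 0.785 for all 7, and the 95% intervals of that fit lay between -0.58 and 0.67. Without the block, the intervals reached from -1.33 to 1.24. That fit, which leaves out the pairing of the 3 arrays per muscle, could not resolve differences within them.

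IGF2 differed more between replicate numbers than between muscles, with shares of the sum of squares of 66.6% to 97.4% for the replicate number and 0.035% to 1.98% for the muscle over the 7 probes. Replicate 3 exceeded the geometric mean of the other arrays of its muscle by 2.78-fold in LDM and 2.32-fold in PMM at A_72_P414443, and by 2.64-fold and 2.04-fold at A_72_P414438. The same ratios were 2.34 and 2.18 at A_72_P055876, and 2.65 and 1.98 at A_72_P209727. At A_72_P376458 they were 1.53 and 1.10, at A_72_P211042, which overlaps it, 1.69 and 1.10, and at A_72_P303139 2.21 and 1.51. After each probe was centred on its own mean, the 4 probes with early starts exceeded the 3 with late starts by 0.37 in LDM replicate 3 and 0.52 in PMM replicate 3 on the log2 scale. The difference was -0.36 and -0.56 in LDM and PMM replicate 2, and 0.04 and -0.00 in replicate 1. This grouping of the probes was made after their values were seen and was not tested, and what sets the probe groups apart was not tested.

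**Figure D2:**
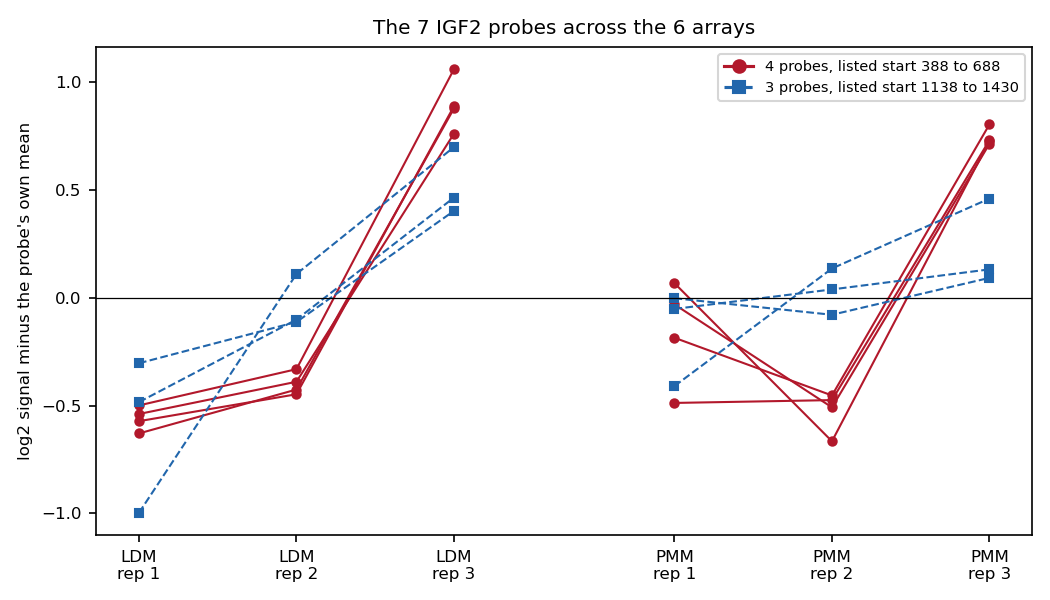
Log2 signal of the 7 IGF2 probes on each array after each probe was centred on its own mean, with the 4 probes of listed start 388 to 688 in red and the 3 of listed start 1138 to 1430 in blue. The red points lie above the blue ones at replicate 3 and below them at replicate 2 in both muscles.

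Neither receptor separated the muscles. For IGF1R, the receptor tyrosine kinase of both ligands, A_72_P146851 gave a relative signal of 0.0493, 0.0649 and 0.0999 in LDM and 0.0740, 0.0631 and 0.0575 in PMM. LDM replicate 1 was the lowest array and LDM replicate 3 the highest, and PMM lay between them. The log2 fold change was -0.08 (SE 0.35, 95% interval -0.88 to 0.71), and it was 0.19 without LDM replicate 3 and 0.30 with normexp correction.

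For IGF2R, A_72_P245722 gave a relative signal of 0.104, 0.0518 and 0.0927 in LDM and 0.0825, 0.0271 and 0.0534 in PMM. Replicate 2 was the lowest in both muscles, PMM was lower than LDM in each replicate, and the groups overlapped because LDM replicate 2 fell below PMM replicates 1 and 3. The log2 fold change of -0.69 (SE 0.47, 95% interval -1.76 to 0.39) was the lowest among the family probes, and the exact permutation p was 0.3. Within replicate numbers the difference was -0.33, -0.93 and -0.80, and the adjusted p of limma with the block was 0.311. The probe was well above background on 3 LDM and 2 PMM arrays, and with normexp correction the log2 fold change was 0.10.

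**Figure D3:**
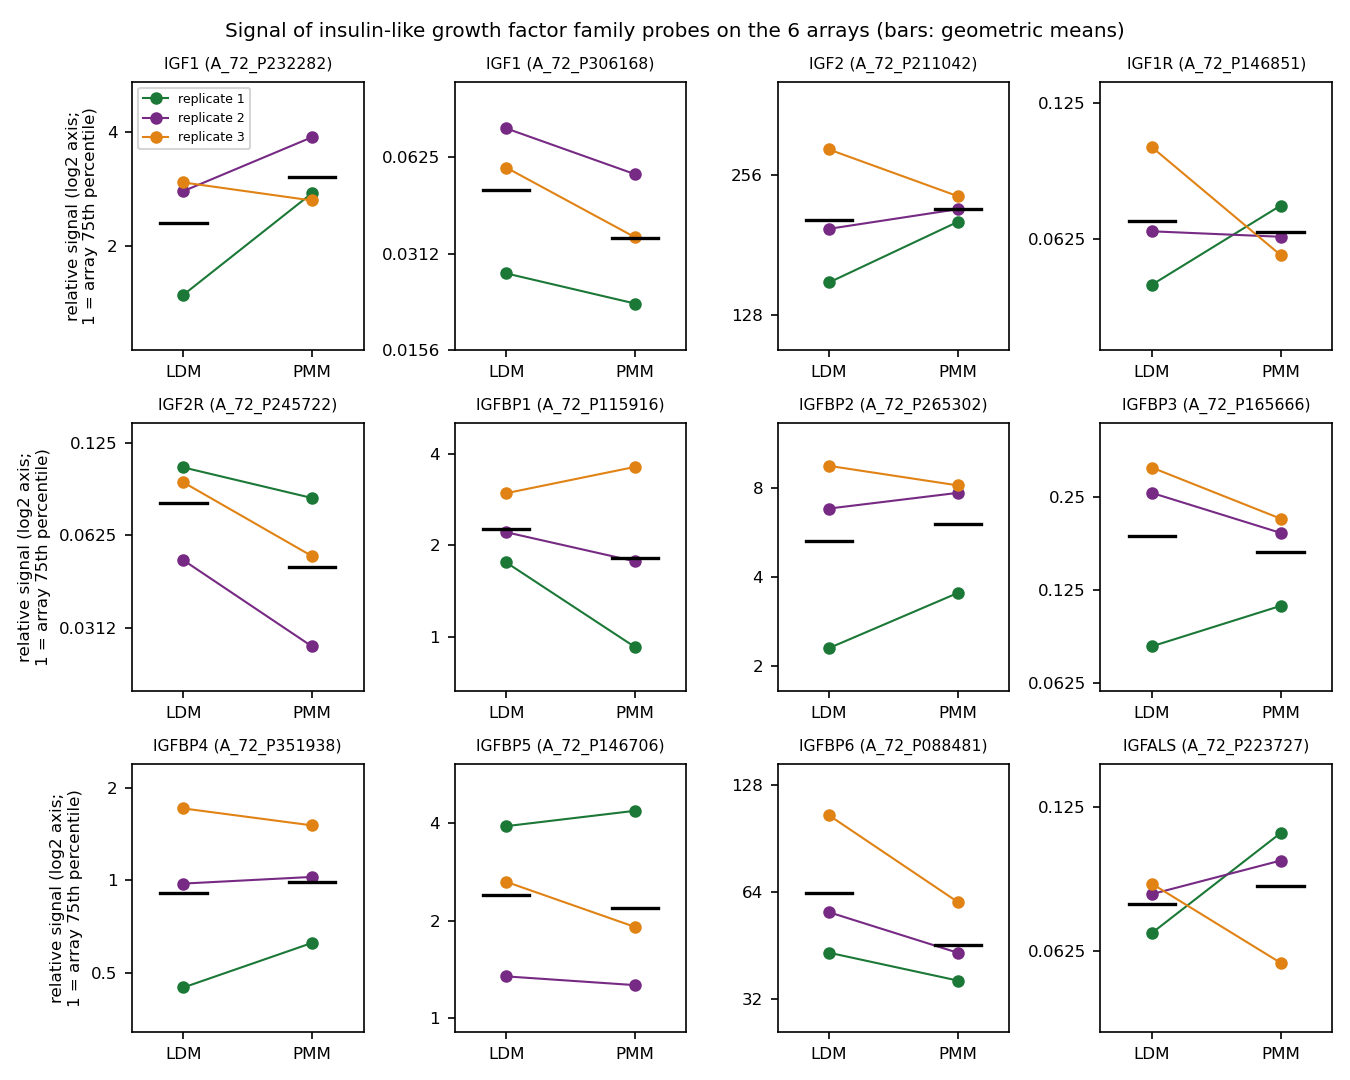
Relative signal of family probes on the 6 arrays, each panel on its own log2 axis with a line joining LDM and PMM of the same replicate number and a bar at the geometric mean of each muscle. Both IGF1 probes are shown and otherwise the brightest probe of each gene; the lines of IGF2R, IGFBP6 and the dimmer IGF1 probe all fall from LDM to PMM, and the groups overlap in every panel.

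Among the binding proteins, IGFBP1, which in liver responds to insulin and fasting, was read by A_72_P115916 with a relative signal of 1.75, 2.21 and 2.97 in LDM and 0.925, 1.77 and 3.62 in PMM. PMM held both the lowest and the highest array, and replicate 3 was the highest in each muscle. PMM minus LDM was -0.32 on the log2 scale (SE 0.50), with -0.92, -0.32 and 0.29 within replicates 1 to 3. The other IGFBP1 probe, with a listed start of 6343 in the same record against 5094 for this one, was not well above background on any array. These readings therefore rest on 1 probe, and whether that probe reads the spliced mRNA was not tested.

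IGFBP2, a major binding protein of fetal and fasting serum, differed widely between replicate numbers. At A_72_P178161, the relative signal was 1.94, 6.94 and 10.8 in LDM and 3.18, 7.07 and 7.70 in PMM. At A_72_P265302, which shares an unbroken run of 54 bases with it, the signal was 2.30, 6.80 and 9.47 in LDM and 3.53, 7.68 and 8.14 in PMM. In both muscles replicate 1 was the lowest array, and the arrays of PMM lay within the range of LDM. The other arrays of the muscle exceeded replicate 1 by 4.45-fold in LDM and 2.32-fold in PMM at the first probe, and by 3.48-fold and 2.24-fold at the second. The log2 fold changes between muscles were 0.08 (SE 0.64) and 0.19 (SE 0.57).

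IGFBP3, the main carrier of IGF in adult serum, gave a relative signal of 0.0822, 0.258 and 0.312 in LDM and 0.111, 0.192 and 0.213 in PMM at A_72_P165666. Replicate 1 was again the lowest array of each muscle, and the log2 fold change was -0.18 (SE 0.53), or 0.26 with normexp correction. For IGFBP4, an inhibitor of IGF action that the protease PAPPA cleaves, A_72_P351938 gave 0.448, 0.976 and 1.71 in LDM and 0.626, 1.03 and 1.51 in PMM. The order of the replicates was the same in both muscles, and the log2 fold change was 0.12 (SE 0.53).

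IGFBP5, the binding protein that myoblasts secrete as they differentiate, followed another order of replicates. At A_72_P146706, the relative signal was 3.92, 1.35 and 2.64 in LDM and 4.37, 1.27 and 1.91 in PMM. Replicate 1 was the highest and replicate 2 the lowest in both muscles, with replicate 1 above the geometric mean of the others by 2.08-fold in LDM and 2.81-fold in PMM. Between the muscles, IGFBP5 differed by -0.13 on the log2 scale (SE 0.55). In the RefSeq annotation of the Sscrofa11.1 assembly, IGFBP2 and IGFBP5 are neighbours on 1 chromosome with 0 annotated genes between them, as are IGFBP1 and IGFBP3.

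IGFBP6, which prefers IGF2 over IGF1, gave a relative signal of 43.1, 56.1 and 105 in LDM and 36.0, 43.1 and 59.9 in PMM at A_72_P088481. Replicate 1 was the lowest and replicate 3 the highest in both muscles, and PMM was below LDM in each replicate, but the groups overlapped. The log2 fold change was -0.48 (SE 0.41, 95% interval -1.41 to 0.44), the exact permutation p was 0.4, and the differences within replicates 1 to 3 were -0.26, -0.38 and -0.81. With the block, the adjusted p of limma was 0.444. This was the 1 probe whose direction no alternative turned, although it shrank to -0.12 once LDM replicate 3 was left out. The brighter IGF1 probe, A_72_P232282, turned only where it was averaged with the dimmer IGF1 probe (-0.05).

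IGFALS, the acid labile subunit made mainly in liver, gave a relative signal of 0.0681, 0.0822 and 0.0864 in LDM and 0.110, 0.0967 and 0.0590 in PMM at A_72_P223727. PMM held both the highest and the lowest array. Its log2 fold change was 0.13 (SE 0.34).

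The replicate number accounted for the largest share of the sum of squares in 16 of the 18 probes. Its median share was 85.3% over the family and 74.2% over all probes with 6 values, and the median share of the muscle was 1.73% and 6.54%. As 7 of the 18 probes read IGF2, the family medians lean on that gene. The replicate number has more levels than the muscle, which raises the share it can take, and the split over all probes is therefore given beside that of the family. The IGF1R probe and the IGFALS probe were the 2 exceptions, with replicate shares of 19% and 22.4%.

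**Figure D4:**
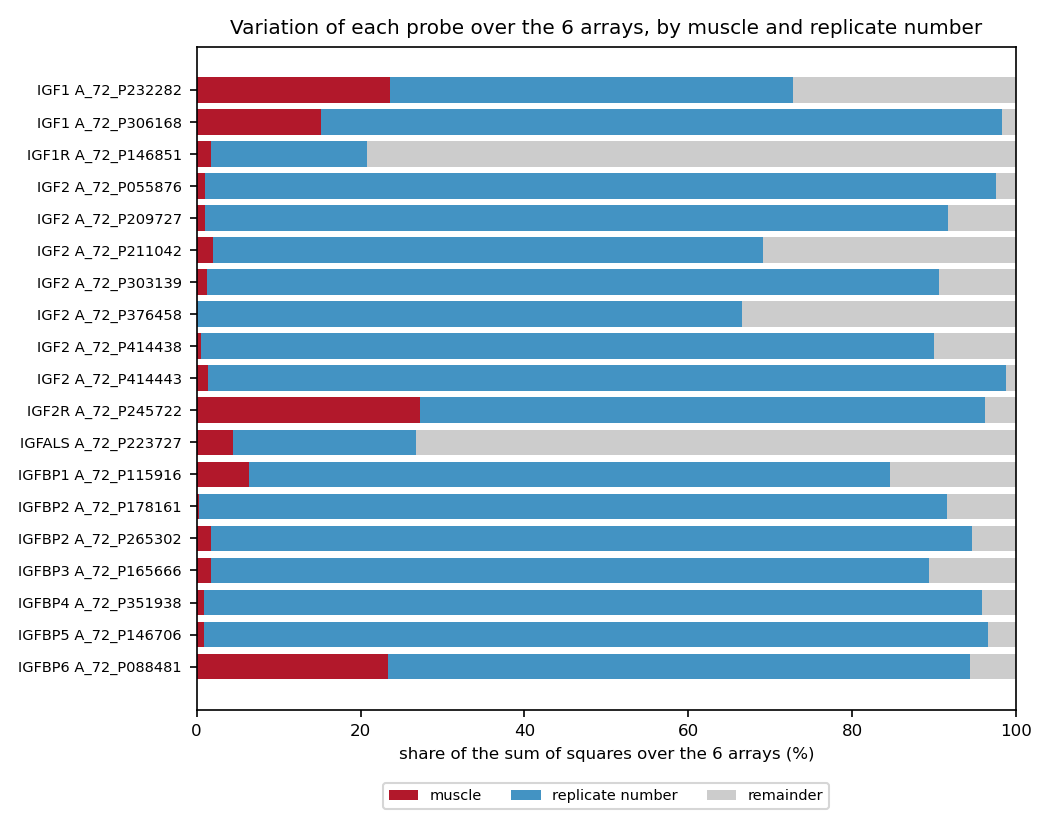
Share of the sum of squares of the log2 signal over the 6 arrays that goes with the muscle (red), the replicate number (blue) and neither (grey), for the 18 family probes and the IGFBP4 probe. The blue part exceeds the others in all but the IGF1R and IGFALS bars.

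Markers of other cell types also differed between replicate numbers. The summed relative signal of 7 adipocyte genes was 77.5, 237 and 230 in LDM and 82.2, 256 and 240 in PMM. Replicate 1 was the lowest in each muscle, as for IGFBP1, IGFBP2, IGFBP3, IGFBP4 and IGFBP6. Replicate 2 was the highest for this sum, whereas replicate 3 was the highest for those binding proteins. FABP4 carried most of that sum, with 50.8, 188 and 197 in LDM and 52.4, 211 and 209 in PMM, whereas LPL was highest in replicate 1 of PMM. The sum of 4 macrophage and leukocyte genes was 7.40, 19.4 and 29.6 in LDM and 9.13, 20.02 and 26.3 in PMM. The sum of 6 connective tissue fibroblast genes was 102, 171 and 230 in LDM and 74.1, 136 and 157 in PMM, in the same order of replicates as IGFBP6 and likewise lower in PMM within each replicate number. DCN carried most of this sum, with 93.2, 159 and 215 in LDM. COL3A1, by contrast, was lowest in replicate 3, with 3.98, 3.58 and 2.67 in LDM and 3.14, 3.20 and 1.59 in PMM. In PMM, FBN1 and POSTN were highest in replicate 2. The macrophage and leukocyte sum and the endothelial sum given below also had the order of replicates of IGFBP6. Neither of these sums was lower in PMM within each replicate number. IGFBP1, IGFBP2, IGFBP3, IGFBP4 and the IGF2 probes A_72_P211042 and A_72_P303139 had this order of replicates too, so it is not particular to IGFBP6. The share of all probes with this order was not counted. The sum of the muscle fibre genes was highest in replicate 1, with 11111, 6950 and 9630 in LDM and 13629, 8458 and 9531 in PMM. In LDM, however, ACTA1, MYL1 and TNNI1 were highest in replicate 3 and MB in replicate 2.

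All 6 fibroblast genes with a probe, of 9 on the list, had a lower mean in PMM. With the replicate block limma called 3 of them lower, against 2.89% of the 2802 genes tested. These were the collagen genes COL1A1 (log2 fold change -0.83) and COL1A2 (-0.84) and the matrix protein gene POSTN (-1.63). Without the block limma called 0 of the 6, with 1 at an unadjusted p under 0.05, against 105 of all 2802 genes. With normexp correction, the log2 fold change was -0.07 for COL1A1, -0.38 for COL1A2 and -1.18 for POSTN. The adipocyte list moved both ways with the block, with LPL called higher, against 4.75% of all genes, and PLIN1 and CIDEC lower, against 2.89%. However, normexp correction turned PLIN1 to 0.17. Without the block 0 of the 6 tested were called, with 1 at an unadjusted p under 0.05, against the same 105 of 2802 genes. The endothelial genes summed to 53.0, 92.1 and 162 in LDM and 90.4, 106 and 156 in PMM, and limma with the block called 0 of these 5 and 0 of the 4 macrophage and leukocyte genes. Among the fibre types, all 6 slow fibre genes with a probe had a higher mean in PMM and 3 were called with the block, namely TNNI1, TPM3 and MYOZ2, against 4.75% of all genes called higher. Without the block limma called 0 of these 6, with 3 at an unadjusted p under 0.05, against 105 of all 2802 genes. It called 0 of 7 fast fibre genes in either fit. Of 3 satellite cell and myogenic genes tested, MSTN, which encodes myostatin, was called lower with the block (log2 fold change -0.79, limma adjusted p = 0.0489) but not without it (adjusted p = 0.999). No probe was found for the erythrocyte genes. The part of these cell types in the differences of IGF2R, IGFBP6 and the other family genes was not tested.

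The other genes of the pathway were given by 8 lists with 80 genes, of which 30 had a probe and 28 were tested, each by its brightest probe. limma called 0 of the 28 without the block, where 0 of the 28 and 105 of all 2802 genes had an unadjusted p under 0.05 and 0.0% of all genes were called. With the block, limma called 1 of the 28, against 7.64% of all genes. It was lower in PMM, where 2.89% of all genes were called, and 0 were higher, against 4.75%. The mean was higher in PMM for 7 and lower for 21, with a median log2 fold change of -0.16 beside -0.01 over all genes tested. These values are from the main fit, and the sign of some of these genes turned under other settings. The share of all genes with a lower mean in PMM was not counted, and the balance of directions was not tested.

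The gene called was INSR, the insulin receptor, which also forms hybrid receptors with IGF1R. Its relative signal was 0.161, 0.155 and 0.101 in LDM and 0.0919, 0.0959 and 0.0660 in PMM. All PMM arrays were below all LDM arrays, where the groups did not overlap for 5.94% of all probes. Replicate 3 was the lowest in each muscle. The log2 fold change was -0.71 with an SE of 0.32 without the block and an adjusted p of 0.999, and limma with the block gave an SE of 0.19 and an adjusted p of 0.0278. With the slide as a random block the adjusted p was 0.0247, but normexp correction gave a log2 fold change of 0.06, so the direction at this dim probe depended on the background correction.

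In the growth hormone list, where GHR and JAK2 carry the signal that induces IGF1, the largest differences were those of STAT5A (log2 fold change -0.60, block adjusted p = 0.0688 in limma) and SOCS2 (0.34), a feedback inhibitor of the pathway. STAT5A was lower in PMM in each replicate, but did not pass the threshold. Among the other adaptors of the receptors, GRB2 gave -0.25. In the list of PI3K and AKT, PDPK1 gave -0.06 and turned when single arrays were left out. In the mTOR list, RPS6KB1, a kinase of ribosomal protein S6, gave -0.33 and the cap-binding factor EIF4E -0.30.

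The transcription factors FOXO3 and FOXO1, which AKT keeps out of the nucleus, gave -0.43 and -0.27 in limma, and neither passed the threshold. NRAS gave -0.53, from a probe whose name in the files is HRAS but whose accession belongs to NRAS in RefSeq. Its PMM values of 0.215, 0.272 and 0.322 were all below its LDM values of 0.353, 0.392 and 0.415, with an adjusted p of 0.114 in limma with the block. The groups did not overlap for 5.94% of all probes. Among the other settings, the NRAS difference shrank to as little as -0.09. The kinase MAP2K1 gave 0.06 and turned to -0.08 with normexp correction. In the list of extracellular handling, M6PR, the cation-dependent mannose 6-phosphate receptor, gave -0.42 and the matrix protein VTN, which binds IGFBP5, gave 0.38. None of the 6 genes of the IGF2 mRNA list had a probe.

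**Figure D5:**
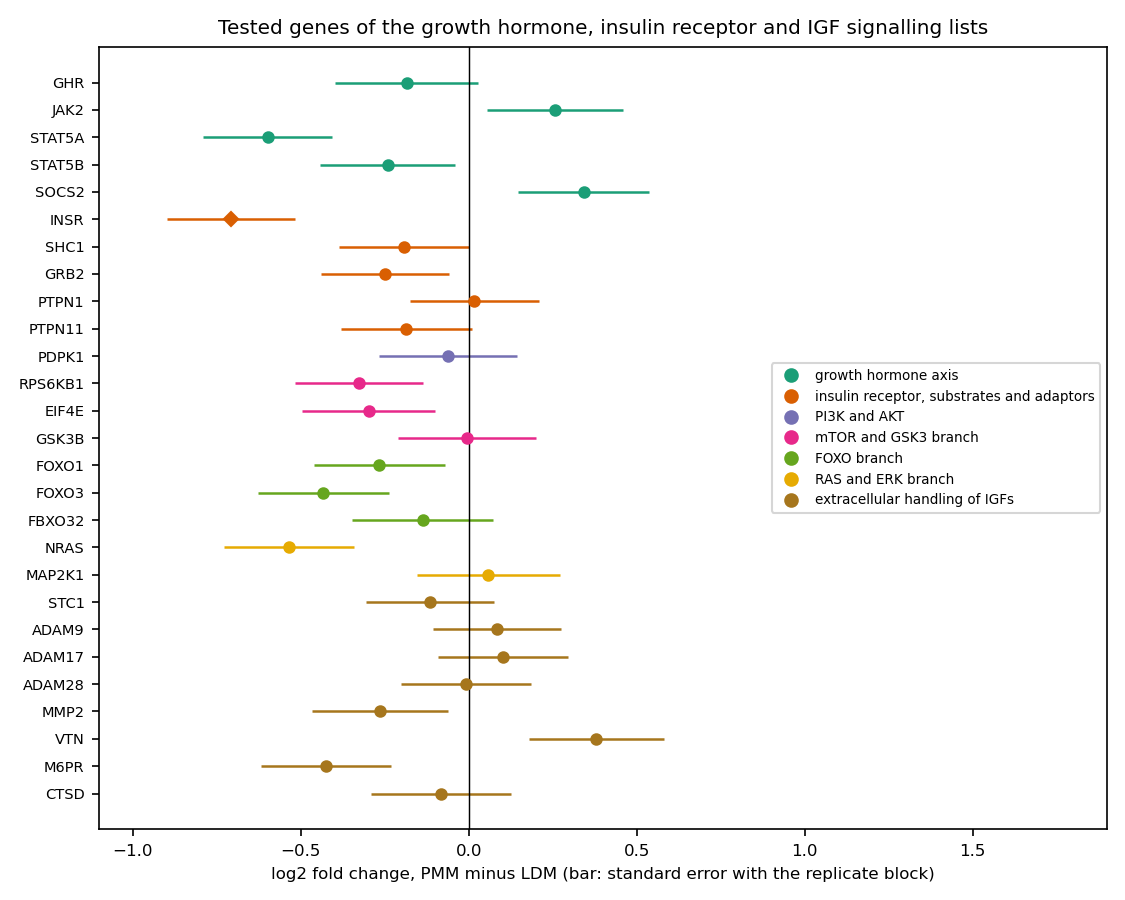
Log2 fold change, PMM minus LDM, of 27 of the 28 tested pathway genes with the standard error of limma with the replicate block as bars, coloured by list. INSR, drawn as a diamond, is the 1 gene past an adjusted p of 0.05 in that fit, and 20 of the 27 points lie to the left of 0.

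The genes whose profile was most like that of each ligand were found by the root mean square difference of centred log2 signals over the 6 arrays, among 2676 named genes outside the family that were well above background on all arrays. For IGF1 at A_72_P232282, these were FXYD3, a regulator of the sodium pump, at 0.108, the phospholipase PLA1A at 0.115 and the complement receptor C5AR1 at 0.116, where the median gene lay at 0.559. For IGF2 at A_72_P211042, they were CLTA, a clathrin light chain, at 0.0597, the cytochrome P450 CYP2C33 at 0.0798 and the cytokine MIF at 0.0845, where the median gene lay at 0.474. With 6 arrays and so many genes compared, such closeness is a description only.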

How the data were processed

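The authors deposited linear spot intensities of one-colour arrays made with Agilent Feature Extraction 10.5.1.1, which had subtracted background and corrected spatial trends but not normalized between arrays, so 1 array's brightness could differ from another's. Control spots were dropped, outlier spots masked, repeated spots averaged, and log2 intensity minus each array's 75th percentile was taken. The deposited value table held the same intensities to within 0.005 and served as an alternative. Probes well above background on all 3 arrays of either muscle, with at least 2 values per muscle, were fitted with limma 3.58.1 in R 4.3.3, two-sided, with Benjamini-Hochberg adjustment over all 25835 probes, or over 2802 genes by brightest probe, and a threshold of 0.05. Single probes were also compared by exact permutation. The fit without the block was tested on simulated data with independent noise on each array and planted changes larger than those of the family. It does not bear on the block fit, on deviations shared within a replicate number or on small changes.

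Members, lists and the rule for named genes were chosen with earlier results of these data known. All family probes are named, with up to 2 genes per pathway list by the largest difference and the 3 closest profiles to each ligand, except 1 pathway gene that is not reported here. Deviations from the muscle means correlated at 0.648, 0.738 and 0.611 between arrays of replicates 1, 2 and 3 over 23710 probes, all above 0.1. Arrays of 1 number were therefore treated as pairs in the replicate block and in the differences within replicate numbers. The main fit used the muscle alone, and neither that fit nor the permutation took the pairing into account. The study used both muscles of each pig, but that a number stands for a pig is not stated. The p-values of the main fit and the permutation are set against the spread between these samples. Those with the replicate block are set against the spread of the differences within replicate numbers. Marker lists covered muscle, slow and fast fibres, adipocytes, fibroblasts, endothelium, macrophages and leukocytes, erythrocytes and satellite cells. The alternatives were quantile normalization, median centring, another percentile base, normexp with offset 50, outliers kept, other filters, the replicate block, the slide as a random block, the value table, the mean of a gene's probes and leaving out each array.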

Additional observations from a re-analysis of the deposited data

How the results depend on the processing

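limma called 0 of the family probes tested under each alternative, where the lowest adjusted p was 0.096 for IGF2R with the slide as a random block. With detection required on all 6 arrays, 16 of the 18 were tested, without IGF2R and IGF1 A_72_P306168. Over all probes, 8 calls became 0 with the percentile taken over detected probes alone, with outlier spots kept, without a filter on dim probes or with detection required on all 6 arrays, 1 with normexp, 17 with the replicate block and 300 with the slide as a random block, and 0 to 1 when single arrays were left out. Quantile normalization gave 7, median centring gave 9, and 8 resulted from the deposited values. For the pathway genes, 0 calls became 1 (INSR) with the replicate block and 1 with the slide block. The replicate block changed no other call of the family or pathway.

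Of 305 repeated log2 fold changes of 19 probes, which were the 18 and the IGFBP4 probe, 250 kept their direction, 33 turned when 1 array was left out and 22 under other settings, all without passing the threshold; the cause was not tested. normexp also moved the median of all probes from -0.04 to 0.11. Under normexp, IGF1 A_72_P306168 gave 0.38, IGF1R 0.30, IGF2R 0.10, IGFBP3 0.26, IGFBP2 A_72_P178161 -0.016, and IGF2 -0.023 at A_72_P209727, -0.10 at A_72_P211042, -0.063 at A_72_P303139, -0.16 at A_72_P376458 and -0.047 at A_72_P414438. With the slide as a random block, the values were -0.071, -0.058, -0.057, -0.11 and -0.13 at the same 5 IGF2 probes, -0.10 for IGFALS, -0.16 for IGFBP2 A_72_P178161 and -0.017 for IGFBP4. Quantile normalization gave -0.022 at A_72_P211042 and -0.095 at A_72_P376458, median centring gave -0.049 at the latter, and the mean of both IGF1 probes was -0.051.

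Leaving out single arrays gave ranges of 0.09 to 0.58 and -0.93 to -0.16 for IGF1 A_72_P232282 and A_72_P306168, -0.32 to 0.19 for IGF1R, -1.06 to -0.26 for IGF2R, -0.056 to 0.40 for IGFALS and -0.82 to 0.17 for IGFBP1. For IGFBP2 they were -0.64 to 0.60 at A_72_P178161 and -0.41 to 0.61 at A_72_P265302, for IGFBP3 -0.78 to 0.18, for IGFBP4 -0.39 to 0.58, for IGFBP5 -0.63 to 0.27 and for IGFBP6 -0.76 to -0.12. For IGF2 they were -0.26 to 0.52 at A_72_P055876, -0.21 to 0.59 at A_72_P209727, -0.14 to 0.33 at A_72_P211042, -0.34 to 0.51 at A_72_P303139, -0.14 to 0.21 at A_72_P376458, -0.26 to 0.55 at A_72_P414438 and -0.56 to 0.34 at A_72_P414443. IGF2R and IGF1 A_72_P306168 were the 2 tested family probes not well above background on all 6 arrays.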
